A study of Arabidopsis thaliana with 24 samples.

Results

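Transcripts of the cytochrome P450 family were followed in roots and rosette leaves of Arabidopsis thaliana given nano-titania (TiO2), nano-ceria (CeO2) or the control solution of either particle. The members are the probe sets that the probe annotation assigns to exactly 1 gene whose symbol is CYP, at least 2 digits and a letter. They number 23 of the 22746 probe sets on the arrays, and each stands for a different gene. Of these, 19 belong to the CYP71B subfamily, and the other members are CYP51G2, CYP78A9, CYP79A2 and CYP84A4. The annotation names only part of the array, with 13513 probe sets of exactly 1 gene, so that many P450 genes of the plant are not analysed here. A probe set shared by CYP71B19 and CYP71B20 and one shared by CYP79C2 and another gene were left out, as were CYP718, whose symbol has no letter, and CYP59 and CYP71, which are cyclophilins.

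Cytochromes P450 are haem-containing monooxygenases that mostly sit on the endoplasmic reticulum and take electrons from NADPH through a partner reductase. Plants use them to make and inactivate hormones, to build cutin, lignin and pigments, and to produce defence compounds. The CYP71B subfamily is large in Arabidopsis, often lies in runs of neighbouring genes, and includes CYP71B15 (PAD3), the last enzyme of camalexin synthesis, which is not among the members.

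Plants were wild type Columbia (Col-0), aged 29 days at harvest, and had been watered on days 0, 4 and 17 with a particle suspension of 500 mg/L or with its control. TiO2 was suspended in KCl and CeO2 in millipore water, so the TiO2 plants and their KCl controls share the salt, which the descriptions give as 0.1 mM and the treatment protocol as 0.1 M. Each of the 8 groups, KCl, TiO2, water and CeO2 in roots and in leaves, had 3 arrays from replicates called biological, with the number of plants behind an array not given. The Affymetrix ATH1 values are log2 signals with array medians between 4.96 and 5.15. On 6 arrays, called narrow here, the lower quartile was above 3.7 and the spread of values smaller (KCl roots 1 and 3, TiO2 root 2, water root 1, KCl leaf 2 and CeO2 leaf 2). The tissue labels matched the marker genes: the mean of 6 photosynthesis and chlorophyll markers was 10.09 to 12.19 in leaf arrays and 4.13 to 6.56 in root arrays, and the mean of PYK10 and 3 jacalin lectins was 9.03 to 11.39 in roots and 3.7 to 6.21 in leaves. Levels are log2 signals with the SD of the arrays, differences between group means are given on the log2 scale ± the fitted standard error, and adjusted p values are from limma over all 22746 probe sets, with a threshold of 0.05.

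The members sit on 4 chromosomes (RefSeq, TAIR10.1). A cluster of 11 lies on chromosome 3 from 9565627 to 9648658, a stretch of 83 kb with 24 protein-coding or pseudogene models, 18 of which RefSeq names CYP71B. In genome order these 11 are CYP71B16, CYP71B21, CYP71B22, CYP71B23, CYP71B24, CYP71B25, CYP71B26, CYP71B34, CYP71B35, CYP71B36 and CYP71B37. CYP71B5, CYP71B30P and CYP71B31 form a second run on chromosome 3, from 19755689 to 19762357. CYP71B27, CYP71B28 and CYP71B29 lie together on chromosome 1, from 4455427 to 4465725. CYP71B38 and CYP78A9 lie alone on chromosome 3, CYP51G2 and CYP71B6 on chromosome 2, and CYP84A4 and CYP79A2 on chromosome 5. RefSeq lists CYP71B27 and CYP51G2 as transcribed pseudogenes. Neighbouring CYP71B genes are close copies, and any share of signal between them was not tested.

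The comparison of roots with leaves of control plants (6 arrays each, KCl and water) asks where these P450 genes are expressed. Among the 23 members 10 passed, 8 lower in roots and 2 higher, where 34.6% of all probe sets passed, 15.4% lower and 19.2% higher. An unadjusted p under 0.05 was found in 14 members and in 43.1% of all probe sets. The root minus leaf differences ran from -3.86 to 1.54, with a median of -0.10 against 0.10 over all probe sets, and the median size was 0.71 against 0.42. All 8 that fell are CYP71B genes, 7 of them in the chromosome 3 cluster. Those that rose were CYP71B37 of the same cluster and CYP78A9. Root and leaf control arrays did not overlap in 6 members, where 16.6% of all probe sets did the same. With array quality weights, whose estimation stopped before it converged, 14 members passed, the 10 among them, beside 51.7% of all probe sets. In these bulk tissues fewer expressing cells and less RNA per cell cannot be told apart.

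CYP71B23 (chromosome 3, 9592727 to 9595283) had the largest difference of the members. Its control leaf arrays ran from 6.02 through a median of 7.97 to 8.91, and its control root arrays from 3.60 through 3.93 to 4.63. The groups did not overlap, and the mean was 14.5-fold lower in roots (-3.86 ± 0.30, adjusted p = 1.35e-08). CYP71B24, the next member along, ran from 4.40 through 6.91 to 7.05 in control leaves and from 2.66 through 3.06 to 3.45 in control roots. It differed by -3.33 ± 0.30 (adjusted p = 6.99e-08). Each of its control root values lay below the lower quartile of its array. For both genes 1 array, water leaf 1, lay at the low end of the leaves (6.02 and 4.40), well above every root array.

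CYP71B26 (chromosome 3, 9632608 to 9634822) varied most within control leaves, from 5.11 through 7.24 to 9.34, against 3.72 through 3.91 to 4.68 in control roots. The difference was -3.26 ± 0.39 (adjusted p = 2.86e-06), and every leaf array was above every root array. CYP71B25, which lies between CYP71B24 and CYP71B26, stayed between 2.91 and 3.75 on all 24 arrays and did not pass (-0.24 ± 0.13, adjusted p = 0.173). After a further quantile normalization CYP71B25 passed, at -0.31 (adjusted p = 0.0292).

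CYP71B34, CYP71B35, CYP71B36 and CYP71B37 follow each other at the end of the cluster. CYP71B36 ran from 3.28 through 5.61 to 6.74 in control leaves and from 2.90 through 3.29 to 3.46 in control roots, and fell in roots by 2.07 ± 0.29 (adjusted p = 1.42e-05). Only water leaf 1, at 3.28, overlapped with the roots. CYP71B37 (chromosome 3, 9646784 to 9648658) starts 2465 bases after the start of CYP71B36 and went the other way. It ran from 3.32 through 3.48 to 3.76 in control leaves and from 3.77 through 5.02 to 6.62 in control roots, and rose in roots by 1.54 ± 0.35 (adjusted p = 0.00174). Leaf arrays of CYP71B37 lay close together, while its root arrays were spread over nearly 3 log2 units.

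The remaining members of the cluster had smaller differences. CYP71B34 fell by 1.14 ± 0.39 (adjusted p = 0.0282), with leaf and root arrays that overlapped. This call was lost without KCl leaf 1 (-0.80, adjusted p = 0.0874), without KCl root 1 (adjusted p = 0.0591), without any single water root array except replicate 2 (adjusted p from 0.0567 to 0.0615), without water leaf 3 (adjusted p = 0.0831) and without the 6 narrow arrays (adjusted p = 0.151). CYP71B22 fell by 0.88 ± 0.27 (adjusted p = 0.017). CYP71B35 fell by 0.69 ± 0.20 (adjusted p = 0.0113), without overlap, and did not pass without the narrow arrays (adjusted p = 0.0896). CYP71B21 was at 2.95 to 3.71 in control roots except for KCl root 1, a narrow array, at 5.90, and did not pass (0.79 ± 0.36, adjusted p = 0.1). It passed without KCl root 2 or KCl root 3 (1.04 in both, adjusted p = 0.0303 and 0.0315). CYP71B16 stayed between 2.52 and 2.99 on all arrays, below the lower quartile of each.

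**Figure D1:**
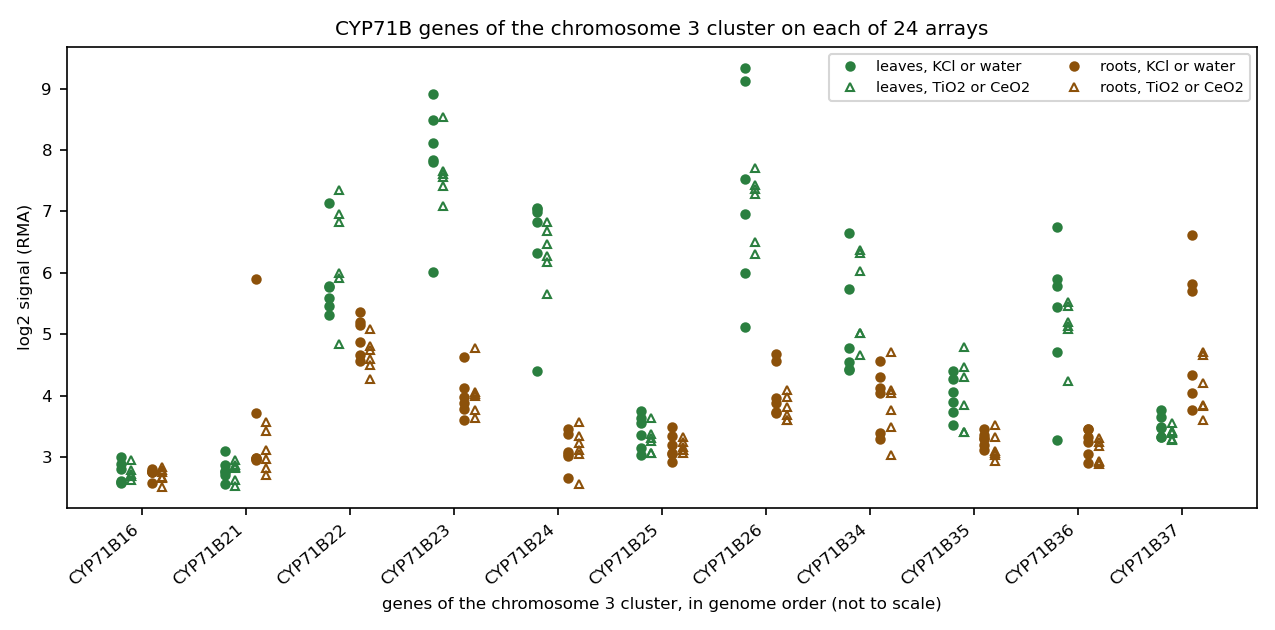
Log2 signal (vertical axis) of the 11 CYP71B genes of the chromosome 3 cluster in genome order, with 1 point per array, leaves in green and roots in brown, filled for KCl or water and open triangles for TiO2 or CeO2. CYP71B23, CYP71B24 and CYP71B26 have every leaf point above every root point, CYP71B16 and CYP71B25 stay low in both tissues, and CYP71B37 at the end of the cluster is higher in roots.

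Outside the cluster, CYP71B5 (chromosome 3, 19755689 to 19757613) was the member that fell in roots. It ran from 5.90 through 6.49 to 7.76 in control leaves and from 3.35 through 3.81 to 4.17 in control roots, without overlap (-2.83 ± 0.23, adjusted p = 2.18e-08). Its neighbours did not follow it. CYP71B30P stayed between 3.01 and 3.51 on all arrays. CYP71B31, which is known to oxidise linalool in flowers, stayed between 2.43 and 2.96 (0.08 ± 0.11, adjusted p = 0.621). Both lay below the lower quartile of every array, so a lack of difference cannot be told from a lack of signal. On chromosome 1, CYP71B28 and CYP71B29 had lower means in roots by 0.71 and 0.50 and did not pass (adjusted p = 0.083 and 0.0537). CYP71B29 passed in 4 of the 12 fits without 1 array (without KCl leaf 1, KCl root 1, water leaf 1 or water root 1) and CYP71B28 in 2 (without KCl root 3 or water root 2). CYP71B29 also passed after a further quantile normalization (-0.60) and without the narrow arrays (-0.82). CYP71B27, their neighbour, differed by 0.27 (adjusted p = 0.126). It passed without KCl root 2 (adjusted p = 0.0494).

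Few P450 genes with a described role had a probe set named by a CYP symbol: 1 of 7 listed for phenylpropanoids, 2 of 20 for glucosinolates and related defence compounds, 1 of 8 for sterols, 1 of 7 for volatile terpenes and 1 of 6 of the CYP78A growth genes. For brassinosteroids, gibberellins, abscisic acid breakdown and jasmonate, 0 of the 8, 5, 4 and 8 listed genes did. Of the members with such a role, 1 passed between the organs of control plants. CYP78A9, which promotes the growth of fruits and seeds, ran from 5.94 through 6.66 to 7.87 in control roots and from 4.16 through 5.0 to 7.04 in control leaves. It rose in roots by 1.40 ± 0.36 (adjusted p = 0.00481), with KCl leaf 1 at 7.04 among the root values. CYP84A4, an enzyme of arabidopyrone synthesis related to the ferulate 5-hydroxylase of lignin synthesis, averaged 7.28 ± 0.83 in control roots and 6.26 ± 0.59 in control leaves (n = 6 each). Its difference of 1.02 ± 0.49 did not pass (adjusted p = 0.117), and passed without water root 2 (1.32, adjusted p = 0.0426). CYP71B6, which converts the auxin and camalexin intermediate indole-3-acetonitrile, averaged 8.05 ± 0.49 in roots and 8.01 ± 0.26 in leaves (0.03 ± 0.27, adjusted p = 0.943). CYP79A2, which starts benzylglucosinolate synthesis from phenylalanine, lay between 2.98 and 3.54 on all arrays, below the lower quartile of each (-0.10 ± 0.09, adjusted p = 0.458). CYP51G2, a copy of the sterol demethylase gene, was at 4.38 ± 0.23 and 4.07 ± 0.20 (adjusted p = 0.101), and passed without KCl leaf 2 (adjusted p = 0.0403). CYP71B38 did not pass either (0.14 ± 0.14, adjusted p = 0.483).

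Plants given TiO2 or CeO2 provide a separate set of 12 arrays for the same comparison. The spread was estimated in 1 fit to all 24 arrays, control plants included. Here 11 members passed, 10 lower in roots and 1 higher, where 29.1% of all probe sets passed, 13.6% lower and 15.5% higher. An unadjusted p under 0.05 was found in 12 members and in 37.4% of all probe sets. Of the 10 members called in control plants 9 were called again in the same direction, beside 5205 of 7873 over all probe sets. The sign was kept in 21 of all 23 members, against 81.5% of all probe sets. With array weights 14 members passed here too, beside 48.5% of all probe sets. The differences of CYP71B23, CYP71B26, CYP71B24, CYP71B5 and CYP71B36 were -3.60, -3.30, -3.20, -2.98 and -2.03. Each of these is within 1 standard error of its value in control plants. CYP71B22, CYP71B34 and CYP71B35, also called in both sets, were at -1.65, -1.71 and -0.87, against -0.88, -1.14 and -0.69 in control plants. By particle, CYP71B22 was at -2.43 in TiO2 plants and -0.87 in CeO2 plants. Over all 24 arrays, roots and leaves did not overlap in CYP71B23, CYP71B24, CYP71B26 and CYP71B5. The share of all probe sets without such overlap on the 24 arrays was not counted.

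CYP78A9 was higher in particle-treated roots by 1.67 ± 0.36 (adjusted p = 0.0014). CYP71B37 kept its direction but did not pass (0.76 ± 0.35, adjusted p = 0.116), although its particle-treated root arrays, from 3.60 to 4.71, all lay above the leaf arrays, from 3.28 to 3.54. The arrays did not overlap in 14.1% of all probe sets and in 7 members. When only the groups compared were fitted, CYP71B37 passed (adjusted p = 0.0186). CYP84A4 was at 1.0 ± 0.49 (adjusted p = 0.14), and passed without CeO2 leaf 2 (1.34, adjusted p = 0.0424) and without the narrow arrays (0.92, adjusted p = 0.0368). CYP71B28 and CYP71B29 were called here and not in control plants, at -0.89 ± 0.31 (adjusted p = 0.0347) and -0.71 ± 0.19 (adjusted p = 0.0088). By particle, the root minus leaf difference of CYP71B28 was -1.82 in TiO2 plants and 0.04 in CeO2 plants. That of CYP71B29 was -1.03 and -0.38. The CYP71B28 call was lost in 7 of the 12 fits with 1 array left out (without TiO2 leaf 2 or 3, TiO2 root 3, CeO2 leaf 3 or any CeO2 root array) and after a further quantile normalization (-0.78, adjusted p = 0.0616). The only redox partner with a named probe set, of 11 listed, was AT3G02280, a diflavin reductase related to the P450 reductases. It was higher in roots than in leaves by 0.53 ± 0.19 in particle-treated plants (adjusted p = 0.0425). In controls the difference was 0.30 ± 0.19 (adjusted p = 0.236). AT3G02280 averaged 5.57 in CeO2 roots and 4.46 in CeO2 leaves, but 4.85 in TiO2 roots and 4.90 in TiO2 leaves. Of 30 P450 genes usually known by another symbol, such as C4H or DWF4, 0 had a named probe set.

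**Figure D2:**
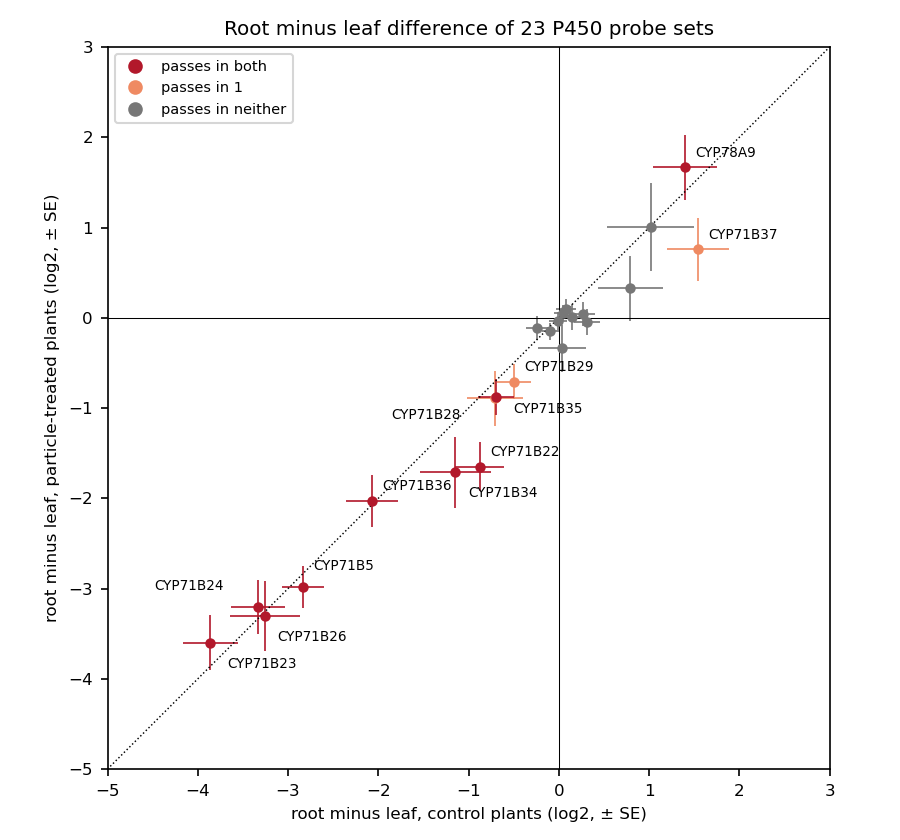
Root minus leaf difference of each of the 23 P450 probe sets in control plants (horizontal axis) and in particle-treated plants (vertical axis), in log2 units, with bars for the standard error and a dotted line where both are equal. The sets of arrays share no sample, and 9 members, in dark red, pass in both, with CYP71B23 at -3.86 and -3.60.

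The comparison of TiO2 with KCl asks what nano-titania did beyond its salt solution. In roots 0 of 23 members passed in limma and 3 had an unadjusted p under 0.05. Over all probe sets 0.347% passed and 12.5% had such a p. The median of the members was -0.25 against -0.06 over all probe sets, and 7 of 23 members were higher against 43.4% of all probe sets. The 4 root markers averaged 9.41 in TiO2 and 10.32 in KCl roots and the 6 leaf markers 5.49 and 4.89, and their part in these values was not tested. Arrays of 0 members were free of overlap, against 15.3% of all probe sets.

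The smallest p values were those of CYP71B26, CYP71B28 and CYP71B37. CYP71B28 stood at 5.01, 6.02 and 6.38 in KCl roots and at 4.77, 5.21 and 3.82 in TiO2 roots (-1.20 ± 0.47, adjusted p = 0.312). CYP71B37 stood at 4.33, 6.62 and 5.71 in KCl roots and at 4.66, 3.60 and 3.85 in TiO2 roots (-1.51 ± 0.65, adjusted p = 0.368). In both genes a TiO2 array lay within the range of the KCl arrays. CYP71B26 was at -0.60 ± 0.23 (adjusted p = 0.296), and CYP71B34 and CYP71B36 were at -0.67 and -0.33.

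Higher means with TiO2 were small apart from CYP78A9, at 8.25, 7.75 and 7.32 in TiO2 roots against 5.94, 7.87 and 6.79 in KCl roots (0.90 ± 0.46, adjusted p = 0.471). Without the narrow arrays, which leaves KCl root 2 as the only KCl array, this value was -0.09. CYP71B5, CYP71B23, CYP71B30P and CYP71B25 were at 0.20, 0.19, 0.13 and 0.11. With array weights 8 members passed, all lower with TiO2, beside 32.1% of all probe sets.

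In leaves 0 members passed for TiO2 against KCl in limma, 1 had an unadjusted p under 0.05, and arrays of 3 did not overlap. Over all probe sets these shares were 0.022%, 15.5% and 25.2%. CYP71B22 had the smallest p. It was at 7.34, 6.83 and 6.96 in TiO2 leaves and at 7.13, 5.59 and 5.31 in KCl leaves (1.04 ± 0.46, adjusted p = 0.313), so that KCl leaf 1 lay among the TiO2 arrays. Without that array the difference was 1.60 (adjusted p = 0.0652). With array weights CYP71B22 was the 1 member that passed (1.21), beside 19.8% of all probe sets.

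Several members of the chromosome 3 cluster had lower means in TiO2 than in KCl leaves. CYP71B36 was at 5.09, 5.46 and 5.13 with TiO2 and at 5.78, 6.74 and 5.90 with KCl, without overlap (-0.91 ± 0.52, adjusted p = 0.42). CYP71B26 and CYP71B23 were at -1.12 ± 0.72 and -0.76 ± 0.50, and CYP71B25 at -0.34 ± 0.21 (adjusted p from 0.45 to 0.48). CYP71B24 was at 6.83, 6.17 and 6.47 with TiO2 and at 6.98, 7.05 and 7.04 with KCl, again without overlap (-0.53 ± 0.53, adjusted p = 0.631). CYP71B34, CYP71B35, CYP71B6 and CYP71B27 had higher means with TiO2 (0.61, 0.24, 0.22 and 0.09), and CYP84A4 a lower one (-0.75). CYP71B34 was at 5.02, 6.36 and 6.32 with TiO2 and at 6.65, 4.77 and 4.44 with KCl, with overlap, and its difference was 0.19 without KCl leaf 3 and 1.30 without KCl leaf 1. The 6 leaf markers averaged 11.86 in TiO2 and 10.79 in KCl leaves, and their part in these values was not tested.

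Nano-ceria was compared with its water control. In roots 0 members passed in limma and 0 had an unadjusted p under 0.05, while 0.0176% and 6.7% of all probe sets did. CYP78A9 had the smallest p, at 6.23, 5.39 and 5.39 in CeO2 roots and at 6.29, 6.53 and 6.83 in water roots. These arrays did not overlap (-0.88 ± 0.46, adjusted p = 0.837), which held for 2 members and for 13% of all probe sets. CYP51G2, CYP71B29, CYP71B5 and CYP71B25 were at -0.41, -0.29, -0.18 and -0.13. CYP71B34, CYP71B28, CYP84A4, CYP71B6 and CYP71B24 were at 0.48, 0.46, 0.37, 0.26 and 0.19. With array weights 4 members passed, beside 20.9% of all probe sets: CYP71B28 (0.98) and CYP71B34 (0.72) were higher, and CYP78A9 (-1.34) and CYP51G2 (-0.47) lower. These values rest mostly on 1 array per group. CeO2 root 2 had a weight of 6.72 beside 0.45 and 0.42, and water root 3 had 9.58 beside 0.77 and 0.32.

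In leaves CeO2 and water gave 0 members past the threshold in limma and 0 with an unadjusted p under 0.05. Over all probe sets 0% passed, also with array weights, and 2.21% had such a p. CYP79A2 was the only member whose arrays did not overlap, which held for 5.22% of all probe sets. All its values lay below the lower quartile of their arrays. It was at 3.47, 3.54 and 3.36 with CeO2 and at 3.32, 3.12 and 3.25 with water (0.23 ± 0.12, adjusted p = 1). CYP71B26, CYP71B36, CYP84A4 and CYP71B6 had higher means with CeO2 by 0.62, 0.51, 0.47 and 0.39, with standard errors of 0.72, 0.52, 0.55 and 0.37. The value of CYP71B26 was 0.074 without water leaf 1 and 1.28 without water leaf 3. The lower means, in CYP71B28, CYP71B29, CYP71B35, CYP71B22 and CYP71B37, were -0.13 or nearer to 0.

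**Figure D3:**
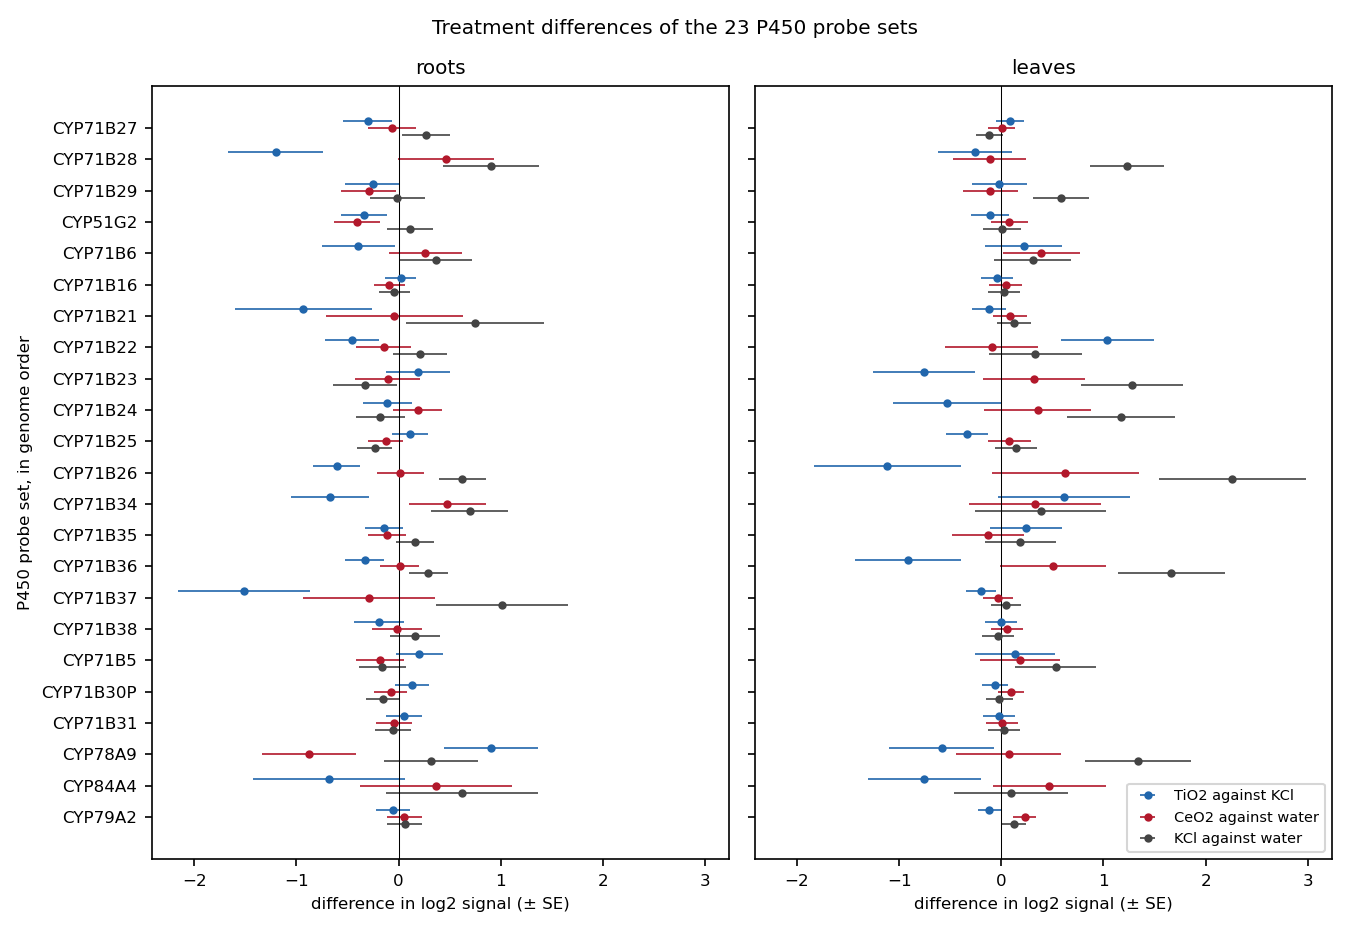
Differences in log2 signal of the 23 P450 probe sets for TiO2 against KCl (blue), CeO2 against water (red) and KCl against water (grey), in roots (left) and leaves (right), with bars for the standard error and genes in genome order. None of the points passes the threshold over all probe sets, and the largest value is that of CYP71B26 for KCl against water in leaves, at 2.26.

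KCl against water compares the control solutions, and its KCl arrays are the same that enter the TiO2 comparison. In leaves 20 of 23 members had the higher mean with KCl, against 56.3% of all probe sets, and the median was 0.19 against 0.04. In limma 0 passed and 5 had an unadjusted p under 0.05 (CYP71B28, CYP71B36, CYP71B26, CYP78A9 and CYP71B23), where 0.189% and 12.2% of all probe sets did. Arrays of 5 members did not overlap, beside 17.1% of all probe sets. All 11 members of the chromosome 3 cluster had the higher mean with KCl, by 0.02 to 2.26.

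CYP71B26 was at 9.34, 6.95 and 9.13 in KCl leaves and at 5.11, 6.0 and 7.52 in water leaves (2.26 ± 0.72, adjusted p = 0.233). Its CeO2 and TiO2 leaves averaged 6.84 ± 0.76 and 7.36 ± 0.07 (n = 3). CYP71B36 was at 5.78, 6.74 and 5.90 with KCl and at 3.28, 4.70 and 5.45 with water, without overlap (1.66 ± 0.52, adjusted p = 0.227). CYP71B23 was at 8.91, 8.11 and 8.48 with KCl and at 6.02, 7.84 and 7.80 with water, again without overlap (1.28 ± 0.50, adjusted p = 0.33). In all 3 genes water leaf 1 was the lowest leaf array.

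Water leaf 1 gave the lowest value of its group in 16 of the 23 members and water leaf 3 the highest in 16. Without water leaf 1 the differences of CYP71B26, CYP71B36 and CYP71B23 were 1.71, 1.07 and 0.68. CYP71B28 on chromosome 1 was at 6.53, 6.38 and 7.11 with KCl and at 5.10, 5.26 and 5.96 with water, without overlap (1.23 ± 0.36, adjusted p = 0.195). It ran from 1.01 to 1.49 with each array left out, and was the 1 member that passed with array weights (1.43, adjusted p = 0.0492; 1.64% of all probe sets). CYP78A9 was at 7.04, 6.09 and 4.80 with KCl against 4.16, 4.56 and 5.20 with water (1.34 ± 0.52, adjusted p = 0.326). The lower means were those of CYP71B27, CYP71B38 and CYP71B30P, at -0.12, -0.03 and -0.02.

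**Figure D4:**
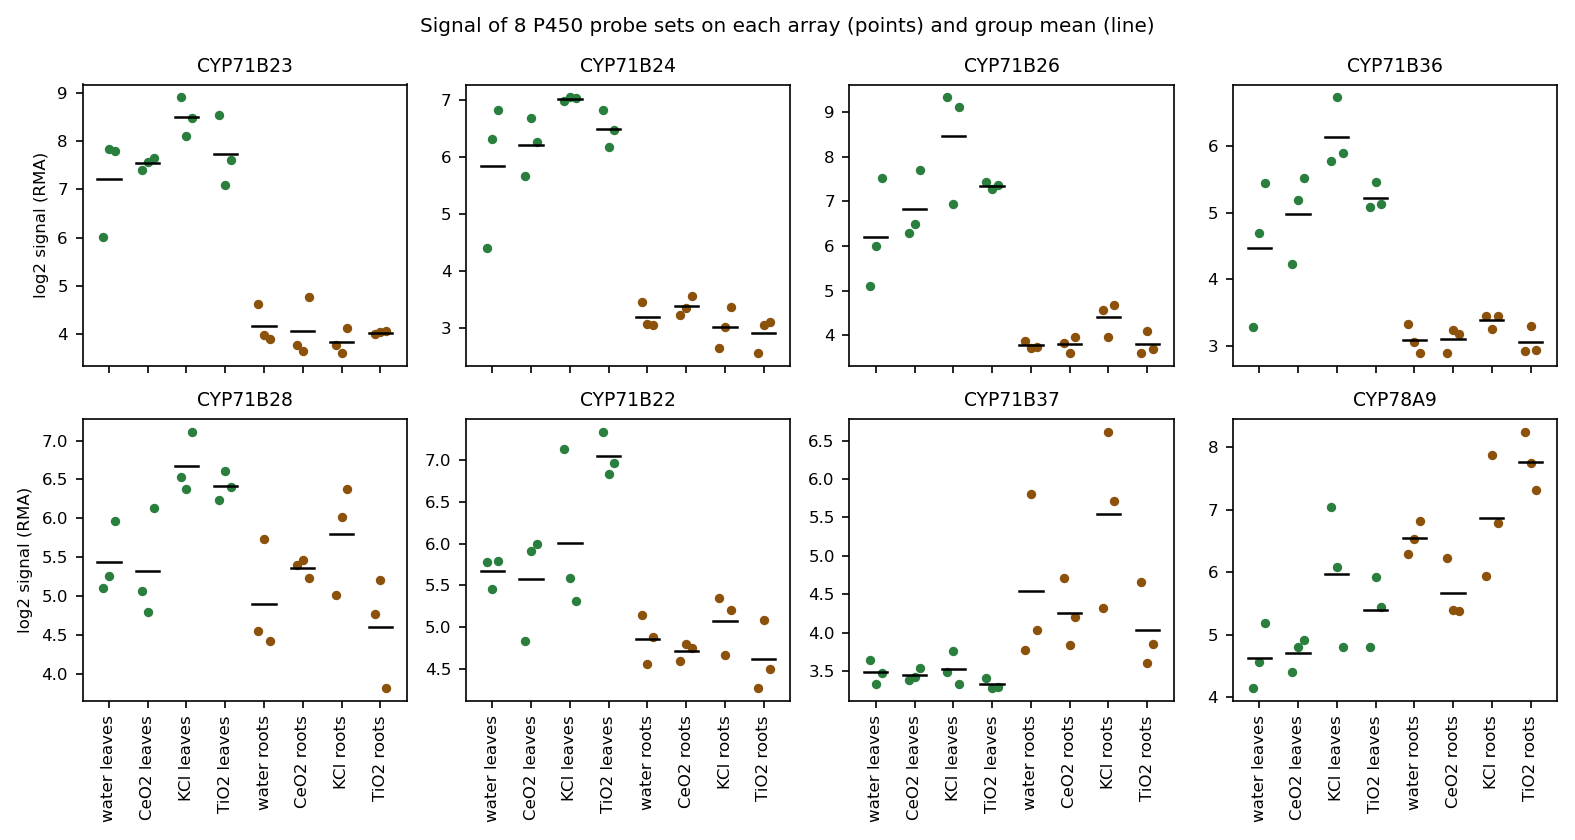
Log2 signal of 8 P450 probe sets (panels, each with its own vertical scale) on each array, leaves in green and roots in brown, with a black line at the mean of the 3 arrays of a group. CYP71B23, CYP71B24, CYP71B26 and CYP71B36 have their highest group mean in KCl leaves, CYP71B37 in KCl roots and CYP78A9 in TiO2 roots, where it averages 7.77.

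In roots, KCl against water gave 0 passing members in limma and 1 with an unadjusted p under 0.05, where 0.119% and 11.6% of all probe sets did. That member was CYP71B26, at 4.56, 3.95 and 4.68 with KCl and at 3.87, 3.72 and 3.74 with water. It was also the only member whose arrays did not overlap (0.62 ± 0.23, adjusted p = 0.303), against 15.9% of all probe sets. CYP71B37, CYP71B28, CYP71B34 and CYP71B36 had higher means with KCl by 1.01, 0.90, 0.70 and 0.29. For TiO2 against KCl in roots, which shares these KCl arrays, the same 4 members were at -1.51, -1.20, -0.67 and -0.33. CYP71B37 moved from 1.01 to 0.48 without KCl root 2 and to 1.65 without water root 2. CYP71B23, CYP71B25, CYP71B24, CYP71B5 and CYP71B30P had lower means by 0.15 to 0.33. With array weights 5 members passed, all higher with KCl, beside 23.8% of all probe sets. Without the narrow arrays, which leaves KCl root 2 alone in its group, CYP71B26 was at 0.23, CYP71B28 at 0.95, CYP71B34 at 0.60, CYP71B36 at 0.28 and CYP71B37 at 1.69, with adjusted p from 0.735 to 0.945. CYP71B5, CYP71B30P and CYP71B24 were then at -0.46, -0.32 and -0.046.

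Whether the particles or the organs differed in their effect was tested as a difference of differences, and no member passed in limma. For the TiO2 effect minus the CeO2 effect in roots, 0.572% of all probe sets passed, and 2 members and 12.2% of all probe sets had an unadjusted p under 0.05. CYP78A9 was at 1.78 ± 0.65 (adjusted p = 0.279) and CYP71B28 at -1.67 ± 0.66 (adjusted p = 0.328), with CYP71B34 at -1.15 and CYP71B5 at 0.39. With array weights 9 members passed there, beside 32% of all probe sets. In leaves 0.0176% of all probe sets passed, and 0 members and 12.4% of all probe sets had such a p. With array weights 0 members and 5.37% of all probe sets passed. CYP71B26 had the largest difference (-1.74 ± 1.02, adjusted p = 0.485), and CYP71B22, CYP71B35, CYP71B36 and CYP79A2 were at 1.13, 0.37, -1.42 and -0.34.

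The TiO2 effect in roots minus that in leaves passed in 0.207% of all probe sets, and 1 member, CYP71B22, had an unadjusted p under 0.05 (-1.49 ± 0.54, adjusted p = 0.277), as did 11.2% of all probe sets. CYP78A9 was at 1.49 ± 0.72, CYP71B37 at -1.31 ± 0.69 and CYP71B25 at 0.45 ± 0.26. With array weights 4 members passed, beside 18.2% of all probe sets. The CeO2 effect in roots minus that in leaves passed in 0.0044% of all probe sets, and 0 members and 4.91% of all probe sets had an unadjusted p under 0.05. With array weights 0 members and 3.7% of all probe sets passed. CYP71B28, CYP71B34, CYP51G2 and CYP78A9 were at 0.58, 0.15, -0.49 and -0.95.

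Across all 8 groups the group means of a member spanned a median of 1.23 log2 units, against 1.15 over all probe sets. Within roots alone the median span was 0.33 against 0.58, and within leaves 0.56 against 0.51. The mean level of the members over all arrays had a median of 4.13, against 5.24 over all probe sets. Whether this lower level narrows the spans was not tested. The widest spans were those of CYP71B26 (4.70, from water roots to KCl leaves) and CYP71B23 (4.67, from KCl roots to KCl leaves), and the narrowest those of CYP71B16 (0.10) and CYP71B31 (0.12). The highest group mean lay in a leaf group in 14 members and in a root group in 9. The matching shares over all probe sets were not counted.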

How the data were processed

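Labelled RNA (15 ug in the labelling step) from 12 root and 12 leaf samples was hybridised to Affymetrix ATH1 arrays, per the labels. The deposited values are log2 signals, 1 per probe set and array, made by the authors with RMA, per the submitters' processing notes, with its version not given in the sources used here. The number of arrays limits the precision. Genes were named by the platform annotation, and positions come from the RefSeq table for TAIR10.1. No sequence was used.

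In R 4.3.3, limma 3.58.1 fitted 4 group means to the 12 arrays of each tissue, or 8 group means to all 24 arrays for comparisons between tissues. Tests were two-sided, with Benjamini-Hochberg adjustment over 22746 probe sets in each of 12 comparisons and a threshold of 0.05. No set test was run. All 23 members were tested without a filter, and the models were checked on simulated data. The text names members that passed, members with the smallest p in each direction in a comparison, those with a described role, and values of the same members in other comparisons. Where nothing ties arrays to separate plants, p-values measure only the spread between arrays. The members and gene lists were chosen with earlier results of these data known.

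Same-numbered arrays of the groups compared within a tissue deviated together (correlations of deviations over probe sets all above 0.1) only for KCl and water roots, at 0.374, 0.341 and 0.176. The other comparisons ran from -0.45 to 0.158. Pairing of same-numbered root and leaf arrays was not checked, and the main fits between tissues treated these arrays as separate. Alternatives were a further quantile normalization, centring on array medians, a filter on dim probe sets, the replicate number as a block, a fit to the compared groups alone, array weights, and leaving out the 6 narrow arrays or each array in turn.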

Additional observations from a re-analysis of the deposited data

How the results depend on the processing

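Leaving out 1 array at a time gave 9 to 12 passing members between roots and leaves of controls and 10 to 12 in particle-treated plants, and 0 in each of the other 10 comparisons. With the replicate number as a block, the treatment comparisons within a tissue kept 0 members, and the block changed no call. The block is shared by all groups of a fit, so it cannot follow a pairing of KCl and water roots alone. Array weights, which ran from 0.2871 to 12.91 and did not converge in any of the 3 fits, moved 7 counts from 0. They gave 8, 4 and 5 members in roots for TiO2 against KCl, CeO2 against water and KCl against water, 1 each in leaves for TiO2 against KCl and KCl against water, 9 for the TiO2 minus the CeO2 effect in roots, and 4 for the TiO2 effect in roots minus leaves. The cause was not tested. The weighted values lean on few arrays, such as water root 3 (9.58), CeO2 root 2 (6.72) and TiO2 root 3 (5.2) in roots and TiO2 leaf 3 (12.91) in leaves. A filter on dim probe sets kept 8 members, of which 5 passed in control plants and 6 in particle-treated plants, fewer because fewer were tested (49% and 42.6% of all probe sets kept passed). Centring on array medians shifted the median over all probe sets by -0.116 for KCl against water in roots, -0.11 and 0.132 for the TiO2 minus the CeO2 effect in leaves and roots, and 0.185 for the TiO2 effect in roots minus leaves.

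Of the 79 member values chosen by the naming rule that did not pass, 56 moved by over 1.5 times when some single array was left out, as did 0 of the 13 that passed. Values pass by being large beside their error, so this contrast was largely set in advance and is no measure of robustness. The 13 leave out the calls of CYP71B34 in control plants and CYP71B28 in particle-treated plants, which were lost in several of these fits. Signs turned only in values that did not pass. With array weights, CYP71B23 and CYP71B24 were at 0.091 and 0.18 for KCl against water in roots, and CYP71B6 at -0.068 for TiO2 against KCl in leaves. With centring, CYP71B27 was at -0.0085 for TiO2 against KCl in leaves and CYP71B30P at 0.0053 for KCl against water in leaves. Without the narrow arrays, CYP78A9 was at -0.092 for TiO2 against KCl in roots, CYP84A4, CYP71B35 and CYP71B28 were at -0.20, 0.044 and 0.15 for CeO2 against water in leaves, and CYP71B34 at -0.25 for the CeO2 effect in roots minus leaves. With 1 array left out, signs turned in these ranges. In roots, CYP84A4 ran from -0.24 to 0.90 for CeO2 against water, and CYP71B24 from -0.35 to 0.0031 and CYP71B5 from -0.37 to 0.034 for KCl against water. In leaves, CYP71B6 ran from -0.23 to 0.53 and CYP71B35 from -0.00035 to 0.48 for TiO2 against KCl, and CYP71B38 from -0.15 to 0.11 and CYP71B30P from -0.043 to 0.0064 for KCl against water. For CeO2 against water in leaves the ranges were -0.090 to 0.99 in CYP71B36, -0.11 to 0.049 in CYP71B37, -0.34 to 0.095 in CYP71B29, -0.48 to 0.13 in CYP71B35, -0.51 to 0.15 in CYP71B28, -0.30 to 0.28 in CYP71B22 and -0.20 to 0.88 in CYP84A4. CYP71B34 ran from -0.27 to 0.55 for the CeO2 effect in roots minus leaves.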

Other observations

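CYP718, a P450 gene whose symbol has no letter after the digits, was outside the rule for members. Its group means lay between 4.18 and 4.73, and it passed in none of the 12 comparisons in limma. Its root minus leaf difference in control plants was 0.28 ± 0.14 (adjusted p = 0.132).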
